A study of Mus musculus with 35 samples.

Results

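Integrins are the receptors with which leukocytes hold on to other cells and to extracellular matrix, and the transcripts of 10 integrin chains were followed here through the macs of the fatty mouse liver. Each integrin is a pair of an alpha and a beta chain, and the pair sets the ligand: the beta2 integrins bind ICAMs and complement, the alpha4 and alpha9 integrins bind VCAM1, fibronectin, osteopontin and tenascin, alpha6 chains bind laminin, and alphav chains bind RGD-containing proteins such as vitronectin. In the liver, Kupffer cells (KCs) sit inside the sinusoid against the endothelium, and cells that arrive from blood use integrins to arrest and enter. The chains were chosen by name (Itgam, Itgal, Itga4, Itga6, Itga9, Itgav, Itgb1, Itgb2, Itgb5 and Itgb7), are 10 of the 54735 gene symbols in the count tables, and were all found and all tested.

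Bulk RNA-seq had been performed on macs sorted from livers of C57BL/6J male mice that were put on a standard diet (SD) or a Western diet (WD) from 5 weeks of age. Resident KCs (ResKCs, sorted as CLEC4F+TIM4+) came from mice fed SD for 12 weeks (n = 7), WD for 12 weeks (n = 5), SD for 24 weeks (n = 6) and WD for 24 weeks (n = 6). Monocyte-derived KCs (moKCs, CLEC4F+TIM4-, n = 5) and macs lacking both markers (CLEC4F- macs, n = 6) came from mice fed WD for 24 weeks, and neither population has an SD group among the samples analysed. For the 5 samples of the 12-week WD group, one descriptive field of the labels names the standard diet while the title and description name WD; they were treated as WD. The labels do not say which samples came from separate mice, so the p-values measure the spread between these samples.

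The sort markers matched the labels in rank: Timd4 was at 547 to 885 CPM in ResKCs after 24 weeks of WD, at 2.85 to 30.3 CPM in moKCs and at 3.43 to 14.6 CPM in CLEC4F- macs. CPM, the levels used throughout, are counts scaled to a common library size with TMM factors, and libraries held 11568590 to 15163845 counted reads, so that 3 counts corresponded to 0.198 to 0.259 CPM over the raw totals, before TMM factors. CLEC4F- macs replicate 4 stood apart, with Clec4f at 5488 CPM against 294 to 1539 CPM in the other CLEC4F- libraries and Ccr2, the receptor of inflammatory monocytes, at 217 CPM against 557 to 1131 CPM. moKC replicate 1 stood apart as well, with Ccr2 at 12.1 CPM against 25.0 to 38.1 CPM and Spp1 at 1.74 CPM against 28.2 to 32.7 CPM in the other moKC libraries. Without both libraries the same number of integrins passed in each of the 7 comparisons. In bulk samples, fewer cells of a type and less RNA per cell cannot be told apart.

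In the mm10 annotation, Itgal (chr7:127296260-127335138) and Itgam (chr7:128062640-128118491) lie on chromosome 7, and Itga6 (chr2:71745616-71858416), Itga4 (chr2:79255426-79333123) and Itgav (chr2:83724397-83806916) on chromosome 2. Itgb1 (chr8:128685654-128733200), Itga9 (chr9:118606690-118901003), Itgb2 (chr10:77530252-77565708), Itgb5 (chr16:33829665-33949338) and Itgb7 (chr15:102215995-102231944) each lie on a chromosome of their own, and only Itgb7 is on the minus strand. Itga4 shares 1124 exon bases with Cerkl (6 to 38 counts a sample) and Itgav 634 with Gm13684 (3 to 111 counts), both on the opposite strand, and since the strand setting is not given in the sources used here, reads in these stretches cannot be assigned with certainty.

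Of the promoters in the RefSeq-derived table (GRCm38.p6), 6 of the 10 integrins had one whose start lay within 100 bases of the start of the GENCODE gene. The 250 bases before the start are shown for Itgam and Itga4, which were higher in CLEC4F- macs, and for Itgb1, which was lower there, because these chains moved in opposite directions between the populations. They lie at chr7:128062390-128062639, chr2:79255176-79255425 and chr8:128685404-128685653, all on the plus strand. Capitals mark matches, on either strand, to GAGGAAG, the core bound by ETS factors such as PU.1, and to GGGCGG, the GC box.
Itgam: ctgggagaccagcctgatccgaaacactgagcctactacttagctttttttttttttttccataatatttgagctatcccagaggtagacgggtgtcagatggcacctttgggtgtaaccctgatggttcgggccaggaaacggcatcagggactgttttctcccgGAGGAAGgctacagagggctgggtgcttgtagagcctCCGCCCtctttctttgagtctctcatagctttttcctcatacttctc
Itga4: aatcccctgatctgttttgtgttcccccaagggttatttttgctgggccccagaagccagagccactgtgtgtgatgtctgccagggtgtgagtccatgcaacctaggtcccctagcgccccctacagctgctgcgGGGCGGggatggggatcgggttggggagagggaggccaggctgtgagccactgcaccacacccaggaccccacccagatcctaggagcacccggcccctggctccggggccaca
Itgb1: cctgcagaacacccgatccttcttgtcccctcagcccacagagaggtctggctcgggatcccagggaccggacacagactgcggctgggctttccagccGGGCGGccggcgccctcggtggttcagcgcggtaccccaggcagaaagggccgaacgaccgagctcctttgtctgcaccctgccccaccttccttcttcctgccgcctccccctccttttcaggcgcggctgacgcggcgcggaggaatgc

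GAGGAAG was found in the windows of Itgam and Itgav, 2 of the 6, and in 10.6% of 32841 promoter windows of the same length. GGGCGG was found in 4 of the 6 (Itgam, Itga4, Itgb1 and Itgb5) and in 32.7% of all windows. TGANTCA, the AP-1 site, was found in 0 of the 6 and in 6.75% of all windows. These matches describe letters in a window and no binding was measured.

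Every chain was transcribed in every group, but at very different levels (the plot of integrin CPM by sample). Levels of different genes were compared per length, as CPM per kb of exon. In ResKCs of mice fed SD for 24 weeks (n = 6), Itgb5 at 261 ± 39.9 (SD) and Itgb2 at 256 ± 31.3 CPM per kb were the highest, followed by Itgb1 at 196 ± 8.32 and Itgal at 166 ± 4.66 CPM per kb. Itga9 at 82.7 ± 3.40, Itgb7 at 62.1 ± 27.3 and Itgav at 23.7 ± 3.57 CPM per kb were intermediate. Itgam at 5.51 ± 1.37, Itga4 at 4.73 ± 0.46 and Itga6 at 0.49 ± 0.26 CPM per kb were the lowest. By exon length, Itgal, the alpha chain of LFA-1, thus far exceeded Itgam, the alpha chain of Mac-1 and the CD11b marker of myeloid cells. The Itgam level is uncertain, since 3450 of its 5024 exon bases are shared with Gm49368, an annotated gene on the same strand that held 0 counts in 33 of 35 samples, and reads there may have been left out of the counts. Over the 1574 unshared bases alone, were all Itgam reads to fall there, its level was 17.6 CPM per kb, still below the 166 of Itgal. The sum of the 10 chains differed little between groups, from 4420 ± 487 CPM in ResKCs at 12 weeks of WD (n = 5) to 4774 ± 245 CPM at 24 weeks of WD (n = 6).

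**Figure D1:**
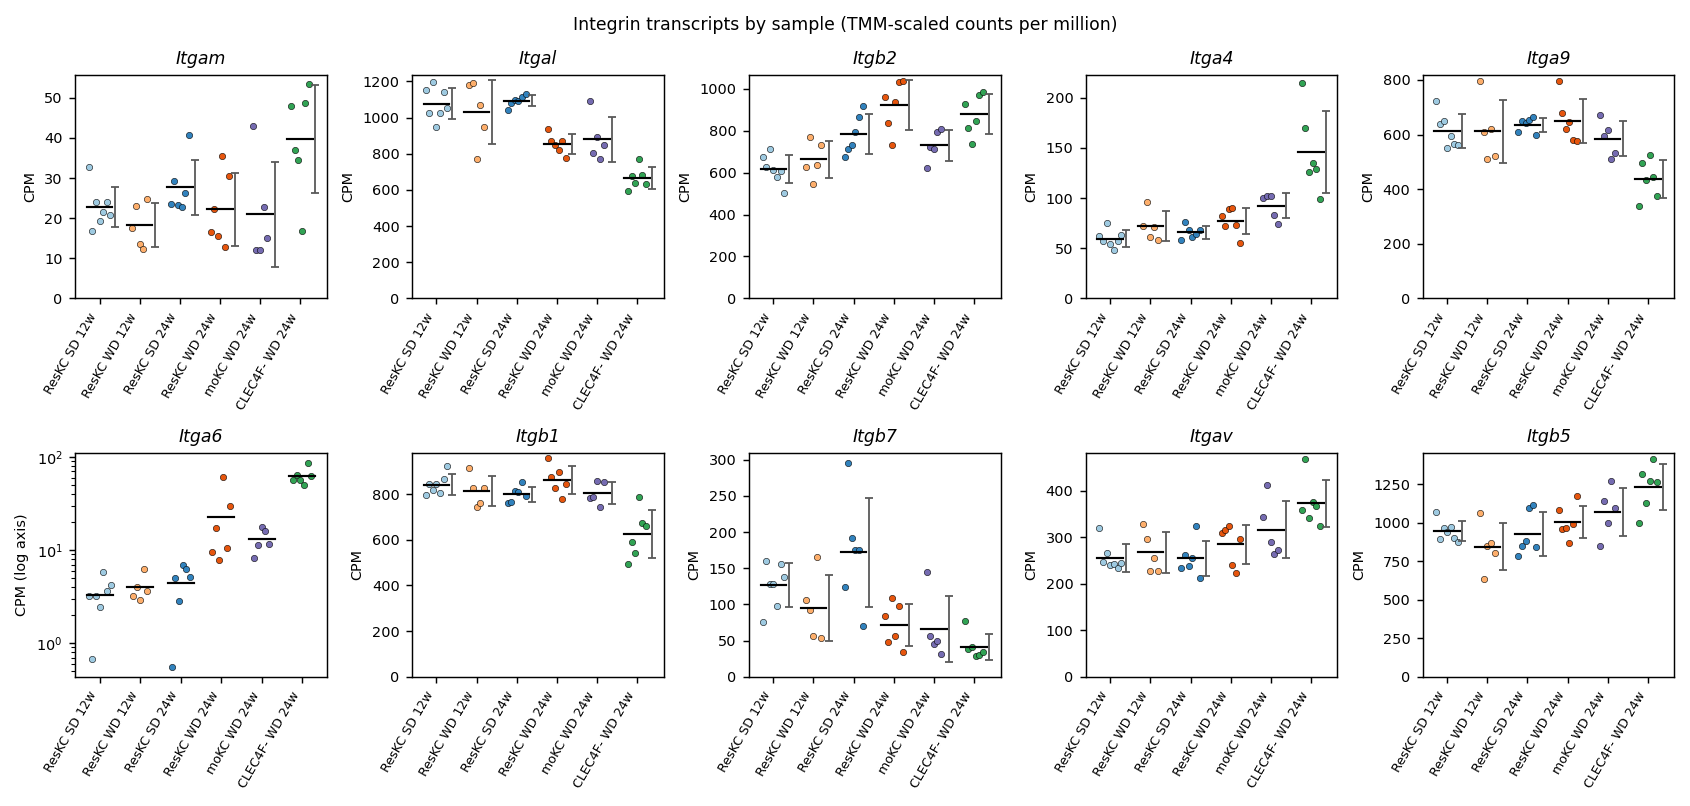
CPM (counts scaled to a common library size, with TMM factors) of the 10 integrin chains in each of the 35 samples, by group; black lines are group means and grey bars are SD, the latter not drawn for Itga6, whose axis is logarithmic. Itga6 lies at 0.562 to 6.85 CPM in ResKCs from SD-fed mice and at 50.3 to 86.2 CPM in CLEC4F- macs, while Itgal, Itga9 and Itgb1 have their lowest means in CLEC4F- macs.

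**Figure D2:**
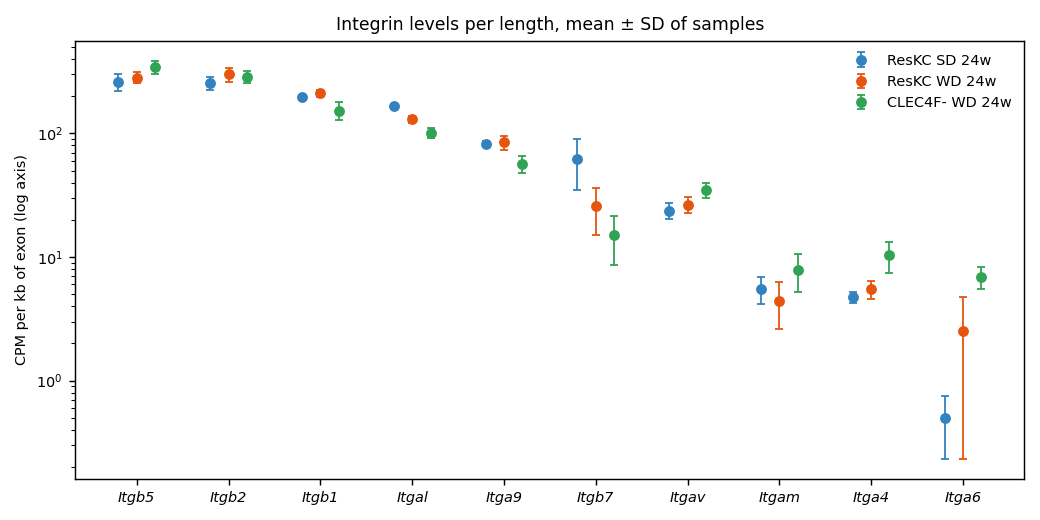
Mean level per kb of exon ± SD (logarithmic axis) of the integrin chains, ordered by ResKCs of mice fed SD for 24 weeks, beside ResKCs and CLEC4F- macs of mice fed WD for 24 weeks. Itgb5 and Itgb2 are highest and Itga6 lowest in each of the 3 groups.

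The first comparison asked whether ResKCs change their integrins on WD. After 12 weeks, none of the 10 integrins passed the test (adjusted p under 0.05 in edgeR's quasi-likelihood test over 13421 genes), 0 of 10 had an unadjusted p under 0.05, and 0.0373% of all genes passed (0.0149% higher and 0.0224% lower on WD). Log2 fold changes ran from -0.42 (Itgb7) to 0.27 (Itga6), and no chain had groups that did not overlap. The smallest adjusted p among them was 0.622. Other tools called few genes as well, 44 with DESeq2 and 1 with limma-voom.

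After 24 weeks, 3 of 10 integrins passed, against 8.71% of all genes: Itga6, the laminin-binding alpha6 chain, rose, while Itgal and Itgb7 fell. Of all genes, 4.84% rose and 3.87% fell. With a log2 fold change over 1 in either direction also required, 2 of 10 integrins (Itga6 and Itgb7) and 3.35% of all genes passed. Itga6 was at 0.562, 5.09 and 6.85 CPM (lowest, median, highest) on SD and at 7.83, 13.8 and 61.1 CPM on WD. Every WD sample lay above every SD sample, and WD samples also differed among themselves, with replicates 4 and 6 at 61.1 and 29.5 CPM and the rest at 7.83 to 17.2 CPM. The log2 fold change was 2.34 ± 0.44 (SE; adjusted p = 0.000872), a 5.08-fold rise, and the gene passed under every alternative tried, at 1.74 (without WD replicate 4, its highest sample) to 2.58. Some of these libraries share an alignment naming scheme in the file headers, whose meaning is not given in the sources used here. Among them, 3 WD samples lay at 7.83 to 17.2 CPM, and the log2 difference from the 6 SD samples was smaller, at 1.56. These WD samples could not overlap the SD samples, since none did over all libraries. Hepatocyte markers summed to 890 to 3243 CPM on WD and 334 to 1186 CPM on SD.

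Itga6 is also carried by platelets and endothelium. The summed level of the 5 platelet markers was 16.5 to 99.7 CPM in ResKCs on WD and 17.0 to 27.6 CPM on SD, with the highest value in WD replicate 4; 4 of the 5 stayed under 1 CPM in every ResKC sample of this WD group, and the sum was almost all Pf4 (16.1 to 99.0 CPM). Of the 2 platelet markers tested, 1 was higher on WD. The 6 endothelial markers summed to 716 to 1113 CPM on WD and 914 to 1708 CPM on SD, none passing the test. The 6 monocyte markers summed to 92.3 to 171 CPM on WD and 119 to 224 CPM on SD, with 1 of the 5 tested higher on WD. Their part in the Itga6 rise was not tested.

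Itgal lay at 1040, 1094 and 1131 CPM (lowest, median, highest) on SD and at 778, 859 and 935 CPM on WD. The groups did not overlap, and across all genes 4.11% were separated in this way. Its log2 fold change was -0.35 ± 0.09 (adjusted p = 0.00929), a fall to 0.782 of the SD level. Its partner Itgb2, the common beta chain of the leukocyte integrins, was at 672, 763 and 919 CPM on SD and at 730, 949 and 1036 CPM on WD. Itgb2 did not pass, at 0.24 ± 0.10 (adjusted p = 0.127), although it did with library size alone (0.31, adjusted p = 0.0203), hepatocyte markers as a covariate (0.32, adjusted p = 0.0414) or the stress-response genes described after Itgb7 as one (0.40, adjusted p = 0.0250).

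Itgb7, which pairs with alpha4 and alphaE in gut-homing leukocytes, was at 69.6, 175 and 296 CPM on SD and 33.6, 70.4 and 109 CPM on WD. One SD sample, at 69.6 CPM, overlapped the WD range. The fall of Itgb7 was 1.27 on the log2 scale (SE 0.35, adjusted p = 0.0200), to 0.416 of the SD level. The call was lost without SD replicate 2, the highest sample (-1.04, adjusted p = 0.0675), without WD replicate 6, the lowest (-1.12, adjusted p = 0.0527), and with the naming scheme as a covariate (-1.02, adjusted p = 0.0696). Within 1 naming scheme the difference was -1.04 on the log2 scale, with 3 WD samples overlapping the 6 SD samples. The 5 B cell markers, a lineage that also carries Itgb7 and Itgal, summed to 31.7 to 57.1 CPM on SD and 9.87 to 28.5 CPM on WD without overlap, with 1 of the 5 passing, as lower. The stellate cell markers summed to 58.6 to 177 CPM on SD and 33.7 to 99.7 CPM on WD. Their part in the falls of Itgb7 and Itgal was not tested.

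The WD samples also differed in stress-response transcripts. Of 10 immediate-early and heat-shock genes, such as Fos, called stress-response genes here, 6 fell in ResKCs on WD at 24 weeks and 0 rose, and their summed level was 854 to 3843 CPM on WD against 1863 to 10180 CPM on SD. With their mean as a covariate, Itga6 still passed, but Itgal (-0.31, adjusted p = 0.0783) and Itgb7 (-0.98, adjusted p = 0.148) did not. Calls were lost across all genes in that fit, with 476 of 13421 passing against 1169 in the main fit. Other alternatives left Itgal past the test.

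The other 7 integrins did not pass at 24 weeks. Their log2 fold changes lay between -0.32 (Itgam) and 0.24 (Itgb2). Within the first naming scheme Itgam differed by -0.59, with 3 WD samples (15.65 to 22.23 CPM) below all 6 SD samples (22.75 to 40.83 CPM). For Itgb1, the beta chain shared by alpha4, alpha6 and alpha9, the fold change was 0.11 with a 95% interval of -0.04 to 0.26, and for Itga9 it was 0.03 with an interval of -0.17 to 0.23.

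Whether the effect of WD differed between 24 and 12 weeks was tested as an interaction, which 0 of 10 integrins and 0.283% of all genes passed (0.0671% higher and 0.216% lower, and 0.0596% with the fold limit). Itga6 had the largest value, a difference of 2.07 ± 0.64 between the log2 fold changes (unadjusted p = 0.00263, adjusted p = 0.130), so its rise at 24 weeks alone is not shown to differ from that at 12 weeks. With the naming scheme as a covariate this value was 1.06 (adjusted p = 0.528), and without replicate 4 of the 24-week WD group it was 1.47 (adjusted p = 0.235). All 12-week WD libraries carry the first naming scheme, within which the 12-week difference of Itga6 was 0.92, with overlap. Itgal was at -0.29 ± 0.12 (unadjusted p = 0.0228, adjusted p = 0.270). For Itgb7 the difference was -0.85 ± 0.49 (adjusted p = 0.449). Compared directly in edgeR, ResKCs on WD had more Itga6 at 24 than at 12 weeks (2.49 ± 0.47, adjusted p = 0.00612). Itgb2 was higher as well (0.48 ± 0.10, adjusted p = 0.0133), and no other chain passed. This comparison leaves out the SD groups, so it measures time on WD and not a change in the diet effect.

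Time on SD was compared to see whether age alone moved the integrins. None of the 10 passed and neither did any other gene in edgeR (0%), while 1208 of 13421 genes had an unadjusted p under 0.05 and DESeq2 called 22. Itgb2 came closest among the chains: it was at 505, 611 and 711 CPM (lowest, median, highest) at 12 weeks and 672, 763 and 919 CPM at 24 weeks. This was a log2 difference of 0.34 ± 0.09 (unadjusted p = 0.00096, adjusted p = 0.255). Within the first naming scheme, which all 24-week SD libraries carry, Itgb2 differed by 0.21, with overlap. It was the only chain with an unadjusted p under 0.05.

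**Figure D3:**
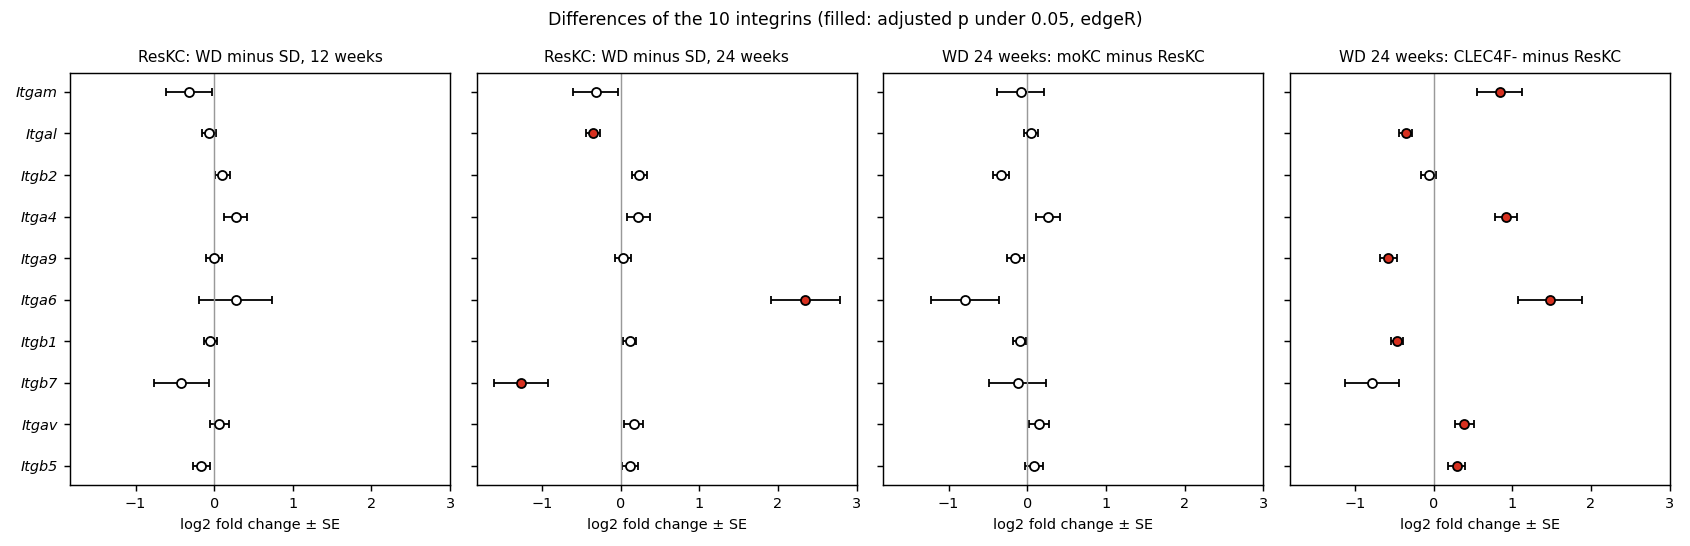
Log2 fold changes ± SE of the 10 integrin chains in 4 comparisons; filled points have an adjusted p under 0.05 in edgeR. No chain is filled at 12 weeks of WD or for moKCs against ResKCs, 3 are filled for WD against SD at 24 weeks and 8 for CLEC4F- macs against ResKCs.

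The populations of the WD-fed liver were compared next, all at 24 weeks; these comparisons share their ResKC, moKC or CLEC4F- samples with each other and with the diet comparison. Between moKCs and ResKCs, 0 of 10 integrins passed, and 2.99% of all genes did (0.991% higher and 2% lower in moKCs, and 1.39% with the fold limit). Itgb2 came closest. It was at 620, 722, 713, 792 and 807 CPM in the 5 moKC samples against 730 to 1036 CPM in ResKCs, a log2 difference of -0.34 ± 0.10 (adjusted p = 0.0710). Within each naming scheme its groups did not overlap, at -0.32 in the first (2 moKC and 3 ResKC samples) and -0.38 in the second (3 and 3). Itgb2 passed in DESeq2 (adjusted p = 0.0373), with the mean of the stress-response genes as a covariate (adjusted p = 0.0140) and without ResKC replicate 3 (adjusted p = 0.0301).

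Itga6 was at 8.20, 11.3, 17.9, 16.1 and 11.7 CPM in moKCs, within the 7.83 to 61.1 CPM of ResKCs on WD. The difference was -0.80 ± 0.43 (adjusted p = 0.378), with an interval of -1.64 to 0.05 that leaves room for sizeable differences, and -0.19 without ResKC replicate 4. Against ResKCs from SD-fed mice of the same age, whose highest sample was at 6.85 CPM, moKCs were higher in all 5 samples (log2 difference 1.55 ± 0.45, adjusted p = 0.0182), a comparison in which diet and population cannot be told apart. Platelet markers, almost all Pf4, summed to 50.1 to 131 CPM in moKCs and 17.0 to 27.6 CPM in these ResKCs, without overlap, and their part was not tested. moKC replicate 1, which stood apart in Ccr2 and Spp1, was also the highest moKC sample for Itgam (43.0 against 12.0 to 22.8 CPM), Itgb7 (145 against 31.5 to 56.5 CPM) and Itgal (1089 against 773 to 890 CPM).

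Between CLEC4F- macs and ResKCs, 8 of 10 integrins passed, against 33% of all genes, with 5 higher and 3 lower where 16.1% and 17% of all genes were. With the fold limit, only Itga6 of the 10 passed, and 10.4% of all genes. The chains that were higher were Itga6, Itga4, Itgam, Itgav and Itgb5. Those that were lower were Itgal, Itgb1 and Itga9. In 4 of the 10 chains (Itgal, Itga4, Itga9 and Itgav) the groups did not overlap, as in 16% of all genes. The median log2 fold change was 0.11 over the 10 chains and 0.02 over all genes.

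Of the leukocyte-type chains, Itgam was at 16.8, 42.6 and 53.5 CPM (lowest, median, highest) in CLEC4F- macs and 12.7, 19.4 and 35.6 CPM in ResKCs. The lowest CLEC4F- value belonged to replicate 4, the library with high Clec4f, and the groups overlapped. The difference was 0.84 ± 0.29 (adjusted p = 0.0216), and 1.00 (adjusted p = 0.000943) without the 2 libraries that stood apart. The call was lost, however, without ResKC replicate 1, 3 or 5 or CLEC4F- replicate 6 (adjusted p = 0.0520 to 0.0602) and with the mean of the stress-response genes as a covariate (0.61, adjusted p = 0.107).

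Itgal was lower in CLEC4F- macs, at 597, 658 and 773 CPM against 778, 859 and 935 CPM in ResKCs, a log2 difference of -0.36 ± 0.09 (adjusted p = 0.00135). It kept this call under all alternatives tried. Itgb2, which pairs with both, was at 738, 887 and 985 CPM in CLEC4F- macs and 730, 949 and 1036 CPM in ResKCs. It did not pass (-0.07 ± 0.10, adjusted p = 0.663), its interval of -0.26 to 0.13 allowed only small differences, and its sign changed with library size alone (0.06).

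Among the chains for fibronectin, VCAM1 and osteopontin, Itga4 was at 99.3, 132 and 215 CPM in CLEC4F- macs and 54.9, 77.7 and 90.2 CPM in ResKCs. Every CLEC4F- sample was above every ResKC sample, and the difference was 0.92 ± 0.14 (adjusted p = 5.91e-06). Itga9 went the other way, at 340, 438 and 524 CPM against 577, 634 and 797 CPM, again without overlap (-0.58 ± 0.10). Itgb1 was at 493, 625.1 and 789 CPM in CLEC4F- macs against 778, 860 and 958 CPM in ResKCs (-0.47 ± 0.08). Only CLEC4F- replicate 4, at 789 CPM, reached into the ResKC range of Itgb1, and without the 2 libraries that stood apart the difference was -0.54.

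The beta7 chain was not called here. Itgb7 was at 28.7, 36.2 and 76.4 CPM in CLEC4F- macs and 33.6, 70.4 and 109 CPM in ResKCs (-0.79 ± 0.35, adjusted p = 0.0806). It passed without CLEC4F- replicate 1, its highest sample (-1.04, adjusted p = 0.0252), without ResKC replicate 6 (-0.93, adjusted p = 0.0404) and with the mean of the stress-response genes as a covariate (-0.99, adjusted p = 0.0354).

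Itga6, too, was higher in CLEC4F- macs, at 50.3, 59.3 and 86.2 CPM against 7.83, 13.8 and 61.1 CPM in ResKCs on WD. Only ResKC replicate 4 reached the CLEC4F- range. The log2 difference was 1.47 ± 0.41 (adjusted p = 0.00490), a 2.77-fold higher level, and 2.07 (adjusted p = 7.19e-05) without that replicate. Itga6 and the other integrins Itgax, Itgad and Itgae are also in a CLEC4F- gene signature that the study derived from these libraries, so their direction here is not independent evidence.

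The RGD-binding chains were slightly higher in CLEC4F- macs. Itgav was at 325, 363 and 469 CPM against 224, 303 and 324 CPM in ResKCs (0.39 ± 0.12, adjusted p = 0.0111). Itgb5 was at 999, 1267 and 1415 CPM against 869, 978 and 1172 CPM (0.29 ± 0.11, adjusted p = 0.0334). The groups overlapped for Itgb5, whose call was lost in 8 of the 12 fits that left out 1 sample, without the filter on low counts (adjusted p = 0.0848) and with the mean of the stress-response genes as a covariate (adjusted p = 0.0619).

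Markers of other cells moved with these differences. Monocyte markers summed to 370 to 1432 CPM in CLEC4F- macs and 92.3 to 171 CPM in ResKCs (3 of the 5 tested higher). Ccr2 alone was at 217 to 1131 CPM in CLEC4F- macs and made up much of their sum. B cell markers summed to 29.9 to 192 against 9.87 to 28.5 CPM (4 of 5 higher), dendritic cell markers to 21.7 to 172 against 10.1 to 21.3 CPM, and T and NK cell markers to 5.11 to 18.2 against 1.23 to 3.79 CPM, with 6 of the 7 T and NK markers under 1 CPM in every ResKC sample. Stellate cell markers summed to 70.4 to 255 against 33.7 to 99.7 CPM (3 of 6 higher). Platelet markers summed to 94.0 to 177 against 16.5 to 99.7 CPM, again mostly Pf4. The stress-response genes summed to 1808 to 8507 against 854 to 3843 CPM (3 of 10 higher). The endothelial markers summed to 364 to 605 CPM in CLEC4F- macs and 716 to 1113 CPM in ResKCs. This lower sum came from Stab2 and Cdh5, while the other 4 (Lyve1, Clec4g, Kdr and Ptprb) did not pass. The median log2 fold change of the 6 endothelial markers was 0.20, so the sum does not describe most of them. Itga4 is also expressed by monocytes and lymphocytes, and Itga9 and Itgb1 by sinusoidal endothelium. The part of the cell type markers in the integrin differences was not tested.

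The differences were also taken within the 2 naming schemes, with 3 CLEC4F- and 3 ResKC samples in each. On the log2 scale, Itga4 differed by 1.04 in the first and 0.75 in the second, Itga9 by -0.73 and -0.44, Itgal by -0.47 and -0.25, and Itgav by 0.29 and 0.50. The groups of these chains did not overlap over all samples, so they could not overlap within a scheme. Itga6 differed by 2.43 on the log2 scale without overlap in the first and by 1.27 with overlap in the second. Itgam differed by 1.13 and 0.55 and Itgb1 by -0.71 and -0.25, each without overlap in the first scheme only. Itgb5 differed by 0.19 and 0.39, without overlap in the second only.

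Between CLEC4F- macs and moKCs, 6 of 10 integrins passed, against 16.4% of all genes, with 3 higher and 3 lower where 7.09% and 9.34% of all genes were. With the fold limit 1 of the 10, Itga6, and 5.05% of all genes passed. Itga6 was 4.81-fold higher in CLEC4F- macs (log2 difference 2.27 ± 0.45, adjusted p = 0.000389), with all 6 samples above all 5 moKC samples. Within the naming schemes, where overlap was therefore not possible, the log2 difference of Itga6 was 2.60 and 2.10. Itga4 was higher by 0.66 ± 0.15 (adjusted p = 0.00215), and its moKC samples at 99.6, 102, 102, 83.6 and 74.3 CPM overlapped the CLEC4F- range at its lower end. Itgal was lower by 0.40 on the log2 scale without overlap (adjusted p = 0.00151), and Itgb1 (-0.37 ± 0.08) and Itga9 (-0.43 ± 0.11) were lower with overlap. Itgam was higher by 0.92 ± 0.30 (adjusted p = 0.0319), which was 1.52 (adjusted p = 9.36e-05) without the 2 libraries that stood apart but failed in 6 of the 11 fits that left out 1 sample. Itgb2 (0.27 ± 0.10, adjusted p = 0.0742), Itgav (0.24 ± 0.13, adjusted p = 0.23), Itgb5 (0.20 ± 0.11, adjusted p = 0.26) and Itgb7 (-0.66 ± 0.36, adjusted p = 0.24) did not pass. The Itgb2 samples overlapped over all libraries but not within either naming scheme (0.30 and 0.28). Monocyte markers summed to 370 to 1432 CPM in CLEC4F- macs, much of it Ccr2, and 111 to 290.1 CPM in moKCs, without overlap (3 of the 5 tested higher). Dendritic cell markers summed to 21.7 to 172 against 11.9 to 31.3 CPM, T and NK cell markers to 5.11 to 18.2 against 1.87 to 7.87 CPM, endothelial markers to 364 to 605.3 against 605.2 to 1533 CPM, and platelet markers to 94.0 to 177 against 50.1 to 131 CPM. Their part in these differences was not tested. Fitted on only these 2 groups, Itgb1 was at -0.36 (adjusted p = 0.0517) and Itgam at 0.93 (adjusted p = 0.122).

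Ratios between chains, which do not depend on the scaling of a library, described the same shifts within samples (the plot of ratios between integrin chains) and were not tested. The log2 ratio of Itgal to Itgb2 was 0.81 ± 0.14 (SD) in ResKCs after 12 weeks of SD and 0.49 ± 0.14 after 24 weeks of SD. On WD it was 0.63 ± 0.21 at 12 weeks and -0.10 ± 0.23 at 24 weeks, and in CLEC4F- macs it was -0.40 ± 0.23. At 24 weeks the WD range of -0.41 to 0.22 did not meet the SD range of 0.30 to 0.63.

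For Itga4 to Itga9, both partners of Itgb1, the log2 ratio was -3.09 ± 0.25 in ResKCs on WD at 24 weeks, -2.67 ± 0.12 in moKCs and -1.61 ± 0.49 in CLEC4F- macs, without overlap between the last 2 groups. For Itgb7 to Itga4 it was 1.26 ± 0.66 in ResKCs at 24 weeks of SD, -0.20 ± 0.50 on WD and -1.86 ± 0.34 in CLEC4F- macs. The ratio of Itga9 to Itgb1, by contrast, stayed between mean values of -0.33 and -0.52 in the 6 groups. The ratio of Itgav to Itgb5 likewise stayed between -1.89 and -1.65.

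**Figure D4:**
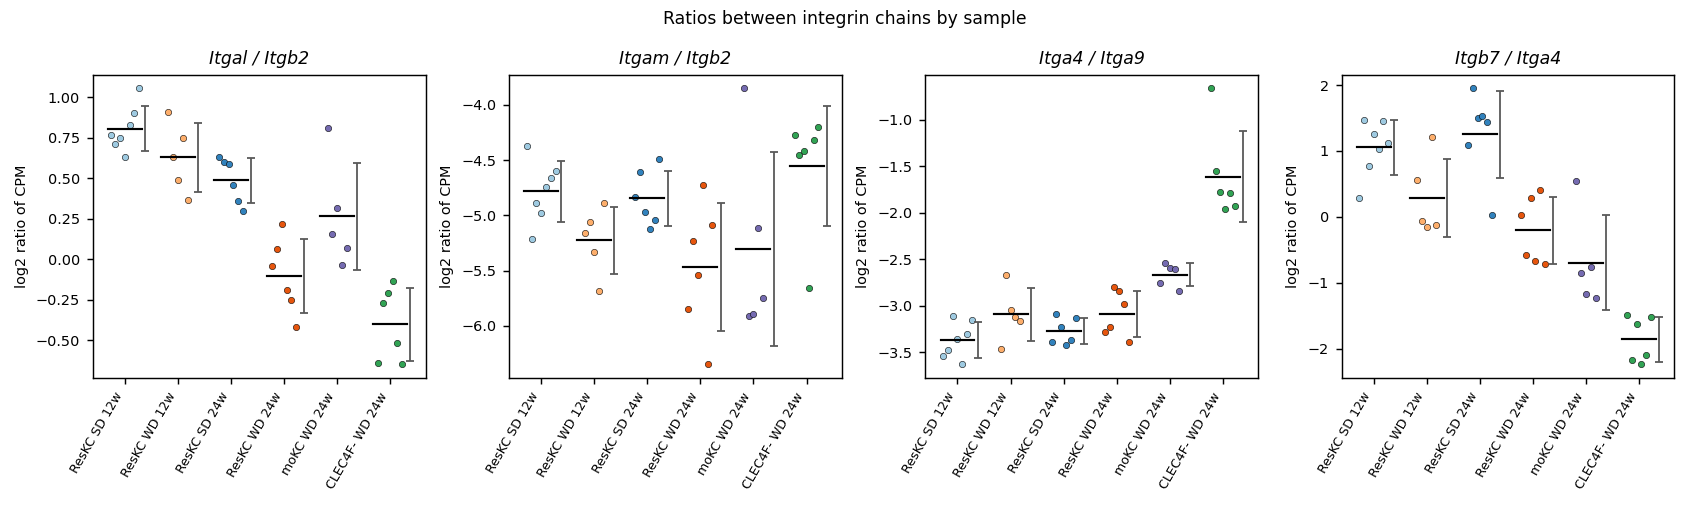
Log2 ratios of the CPM of 2 integrin chains in each sample, by group; black lines are means and grey bars are SD. The ratio of Itgal to Itgb2 is 0.49 in ResKCs at 24 weeks of SD and -0.10 on WD, and the ratio of Itga4 to Itga9 rises from -3.09 in ResKCs on WD to -1.61 in CLEC4F- macs.

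Across the 6 groups, the mean level of Itga6 varied 18.9-fold, of Itgb7 4.15-fold, of Itga4 2.45-fold and of Itgam 2.18-fold. The other 6 chains varied 1.38-fold to 1.64-fold. Groups were then ordered by mean log2 CPM. In the order of Itga6, CLEC4F- macs were above ResKCs on WD at 24 weeks, which did not differ beyond their spread from moKCs (adjusted p = 0.378). moKCs were above the 12-week WD ResKCs (adjusted p = 0.0269), and no difference passed between neighbours among the 3 ResKC groups from 12 weeks or from SD. By mean CPM the 24-week SD ResKCs (4.46 CPM) came before the 12-week WD ResKCs (4.01 CPM), and moKCs were above them too (adjusted p = 0.0182 in edgeR). For Itgal, CLEC4F- macs were below ResKCs on WD at 24 weeks and no other neighbours differed. For Itga4, Itga9 and Itgb1, CLEC4F- macs likewise stood alone at one end of the order, and for Itgam, Itgav, Itgb2, Itgb5 and Itgb7 no neighbouring groups passed.

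The genes whose log2 CPM followed a chain most closely over the 35 samples were named for the 4 chains with the widest range; the samples share groups and depth, and these correlations are descriptions that hold differences between group means. For Itga6 they included Ccr1 (Pearson r = 0.91, and 0.62 after group means were removed) and Dpep2 (0.90 and 0.50). For Itgb7 they were Fam69a (0.83 and 0.56), Tmcc1 (0.83 and 0.74) and Alox5ap (0.82 and 0.66). For Itga4 they were Gm45153 (0.87 and 0.47), Git2 (0.86 and 0.53) and Tmem50b (0.86 and 0.31), and for Itgam Add3 (0.72 and 0.60), Tiam1 (0.71 and 0.63) and Gas7 (0.70 and 0.60).

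Of 17 other integrin subunits, 8 had enough counts to be tested. For WD against SD at 24 weeks 1 was higher and 1 lower, beside 4.84% and 3.87% of all genes. In CLEC4F- macs 5 (Itgad and Itgae among them, with the limit given below) were higher and 0 lower than in ResKCs, beside 16.1% and 17% of all genes. Against moKCs 2 were higher, beside 7.09%. In moKCs 1 was higher than in ResKCs, beside 0.991%, and 1 was lower in the interaction, beside 0.216%. Itgax, the CD11c chain, rose in ResKCs on WD at 24 weeks from a mean of 6.10 CPM on SD to 37.6 CPM (2.63 ± 0.35, adjusted p = 9.85e-06) and was higher again in CLEC4F- macs, at 285 CPM (2.92 ± 0.33 against ResKCs). Higher in CLEC4F- macs than in ResKCs, besides Itgax, were Itga5, the fibronectin receptor chain, at 98.8 against 67.8 CPM (0.54 ± 0.16), and Itga2b, at 0.452 to 0.950 CPM against 0 to 0.376 CPM. Itgad was at 1.60 to 4.40 CPM against 0 to 0.363 CPM and Itgae at 0.365 to 4.23 CPM against 0 to 0.867 CPM. These 3 low genes rest on few counts. Itgad and Itgae were kept by the filter on low counts only through the CLEC4F- samples, with Itgae at no more than 1.41 CPM in any other sample. The levels and calls of both are therefore a description. Itga2b, the platelet alphaIIb chain, also passed as lower in ResKCs on WD at 24 weeks (0 to 0.376 against 0.158 to 1.90 CPM), as higher in moKCs than ResKCs (0.477 to 2.27 CPM) and, with a negative value, in the interaction of diet and time. Besides Itgax and Itga2b, no other subunit passed for diet at either time.

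Among 16 tested genes of integrin activation and tail adaptors, 1 was higher and 3 were lower in CLEC4F- macs than in ResKCs, a share no higher than the 33% of all genes that passed (16.1% higher and 17% lower). Rasgrp2, the exchange factor that switches on RAP1 upstream of integrins, was at 40.0 ± 9.82 CPM in CLEC4F- macs and 104 ± 11.3 CPM in ResKCs (SD, n = 6 each; log2 difference -1.38 ± 0.13). Tln1, talin, was lower by 0.58 on the log2 scale, Fermt3, kindlin-3, by 0.35, and Itgb1bp1, a binder of the beta1 tail, was higher at 0.37 ± 0.10. For WD against SD at 24 weeks, where 8.71% of all genes passed, Fblim1 (0.50 ± 0.12) rose, and Itgb1bp1 (-0.31 ± 0.10) and Rap1a (-0.30 ± 0.07) fell. Itgb1bp1 was also the only adaptor to pass the interaction of diet and time (-0.60 ± 0.14, adjusted p = 0.0428). At 12 weeks of WD, no tested gene of this list, of the other subunits, or of the signalling genes and ligands described next passed.

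Of 15 tested genes that signal downstream of integrins, 1 was higher and 6 were lower in CLEC4F- macs than in ResKCs, beside 16.1% and 17% of all genes. The kinases Ptk2, focal adhesion kinase (-1.72 ± 0.15), and Src (-1.16 ± 0.30) were the furthest below ResKCs of the 6, and Lims1, the PINCH adaptor, was higher at 0.58 ± 0.09. Ptk2 was also lower than in moKCs (-1.57 ± 0.15). On WD at 24 weeks, ResKCs had higher Parvg (0.81 ± 0.13) and Syk (0.25 ± 0.08).

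The ligands transcribed by the same macs formed the last list, of which 17 of 18 were tested. On WD at 24 weeks, 3 rose in ResKCs and 1 fell, beside 4.84% and 3.87% of all genes: Spp1, osteopontin (2.92 ± 0.73), and Fn1, fibronectin (2.49 ± 0.47), had the largest rises, and F11r, a ligand of LFA-1, fell (-0.65 ± 0.15). In CLEC4F- macs Spp1, at 205 to 598 against 3.59 to 45.1 CPM (log2 difference 4.65 ± 0.66), and F11r (adjusted p = 2.61e-09 in edgeR) were higher than in ResKCs, while Vcam1 (-0.95 ± 0.31) and Icam1 (-0.57 ± 0.12) were lower, beside 16.1% and 17% of all genes. Tnc, tenascin C, was at a mean of 1.41 against 0.180 CPM, and was kept by the filter on low counts only through CLEC4F- and moKC samples, so its levels are a description. moKCs had less Fn1 (-1.91 ± 0.49) and more F11r (0.66 ± 0.16) than ResKCs. Against moKCs, CLEC4F- macs had 5 ligands higher, among them Spp1 (3.92 ± 0.68) and Thbs1 (2.46 ± 0.56), and 1 lower, Icam1 (-0.50 ± 0.13), beside 7.09% and 9.34% of all genes.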

How the data were processed

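The deposited files hold raw counts per gene symbol, 1 file per sample; per the submitters' processing notes and the study's methods, the authors aligned 75 bp single reads to mm10 with HISAT2 2.2.0 and made the counts with featureCounts 2.0.0 (FastQC 0.11.9, SAMtools 1.10). The annotation, the strand setting and the treatment of reads that overlap several genes are not given in the sources used here. Positions and exon lengths were taken from GENCODE M21 (mm10), in which 54106 of 54735 symbols were found. Genes above 1 CPM in at least 5 samples (13421) were fitted over all 35 samples with 1 mean per group in edgeR 4.0.16 (R 4.3.3; TMM factors 0.905 to 1.135, quasi-likelihood test, Benjamini-Hochberg adjustment); SE is the log2 fold change over the root of its F, and intervals are normal. "Passed" means an adjusted p under 0.05. Log2 CPM used a prior count of 2. On simulated counts with 200 genes changed 2-fold among 13421, 55.5% (interaction) to 75% (time on SD) were recovered. DESeq2 1.42.0, limma-voom 3.58.1, other filters, scalings, sample sets and covariates were alternatives. Depth limits cover counting error only.

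The integrins and all gene lists were chosen with earlier results of these data known. The text names all 10 integrins, the passed members of each other list with the 2 highest rises and 2 highest falls per comparison, and the 3 best-correlated genes of the 4 chains with the widest range; Fermt3 and Itga5 were named beyond this rule after their values were seen. Some genes that the rule names are not reported here.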

Additional observations from a re-analysis of the deposited data

Results flagged for a closer look

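In 60 sets of samples (10 integrins in 6 groups), 4 held a sample far from the rest of its group, by a gap test that chance meets in about 1 set in 20. Itga6 was at 0.677 CPM in replicate 2 of ResKCs at 12 weeks of SD, where the other samples lay at 2.46 to 5.75 CPM. It was at 0.562 CPM in replicate 1 of ResKCs at 24 weeks of SD, where the others lay at 2.86 to 6.85 CPM. These values rest on 9 and 8 counts. Itgav was at 319.7 CPM in replicate 1 of ResKCs at 12 weeks of SD against 234 to 266 CPM. Itgb7 was at 76.4 CPM in replicate 1 of CLEC4F- macs against 28.7 to 40.7 CPM, and without that sample Itgb7 passed against ResKCs (adjusted p = 0.0252 in edgeR). That library also had the highest B cell and dendritic cell marker sums of its group, at 191.8 and 172.4 CPM. In the other CLEC4F- libraries these lay at 29.9 to 70.8 and 21.7 to 71.5 CPM, and their part was not tested.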

How the results depend on the processing

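Of 32 member fold changes recomputed under 733 settings in all, 690 kept their direction and side of the threshold, 29 lost the call, 11 gained it and 3 changed sign, all 3 of them not called. Those were Itgb2 between CLEC4F- macs and ResKCs with library size alone (0.0571), and Itgb7 between moKCs and ResKCs when 1 sample was left out (-0.65 to 0.0528, against -0.12 with all samples). The number of integrins that passed was 0 under every setting at 12 weeks of WD, for the interaction and for time on SD, and 2 to 4 for WD at 24 weeks. For CLEC4F- macs it was 1 against ResKCs and 1 against moKCs when an absolute log2 fold change over 1 was also required, and 6 to 9 and 5 to 7 with 1 sample left out. For moKCs against ResKCs it was 1 with DESeq2, 1 with the immediate-early covariate and 0 to 1 with 1 sample left out; in each case the chain was Itgb2. The cause of these changes was not tested. By coding length, 6 of the 10 chains kept their place in the order of levels in ResKCs on SD at 24 weeks; by unshared exon bases, a choice made after seeing the data like the fit without the 2 libraries that stood apart, 10 did. Replicate numbers were not taken as pairs, since in no comparison did every same-numbered pair correlate over 0.1 (range -0.36 to 0.26; for CLEC4F- macs and ResKCs 4 of 6 pairs did, at 0.024 to 0.263 over the 6). With the numbers as a block, 3 integrins passed for WD at 24 weeks, 8 and 6 for CLEC4F- macs against ResKCs and moKCs, and 0 elsewhere, while genes passing at 12 weeks of WD went from 5 to 86. Depth limits Itga6 on SD, at 8 to 84 counts a sample.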
